A study of Homo sapiens with 7 samples.

Results

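POU2AF1, POU2F2 and POU2F1 are the genes that encode OCA-B, OCT2 and OCT1, so their loci show where these 3 proteins occupy their own genes and each other's. All peaks were taken whose summit lay inside one of the genes or within 50 kb of either end, from the peak lists of these 3 proteins and of the coactivators MED1, CREBBP and EP300. They numbered 479 and merged into 138 regions (54 at POU2AF1, 47 at POU2F2 and 37 at POU2F1), of 111561 merged regions in the genome. The lists come from chromatin immunoprecipitation followed by sequencing (ChIP-seq) in OCI-Ly7, an established human line of diffuse large B-cell lymphoma grown without any treatment named in the labels. A single library was made for each factor, and the 6 lists share 1 input library from these cells as their control. There is therefore no replicate check and no test of any difference below.

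OCT1 and OCT2 are paralogous transcription factors of the POU family. Both bind the octamer ATGCAAAT through a bipartite POU domain. OCT1 is found in most cell types, whereas OCT2 is largely restricted to B cells and neurons. OCA-B, also called OBF-1 or Bob1, is a lymphoid coactivator with little DNA contact of its own that clamps the POU domain on suitable octamers and is required for germinal centres in mice. MED1 is a subunit of Mediator, which links activators to RNA polymerase II, and CREBBP and EP300 are paralogous histone acetyltransferases.

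POU2AF1 lies at chr11:111352255-111379275 (27.0 kb, hg38) and is read from the minus strand. POU2F2 lies at chr19:42086110-42197936 (111.8 kb) and is also read from the minus strand. The start listed for POU2F2 is at position 42132446, 65.5 kb inside the outer end, so the outer end marks a longer form. POU2F1 lies at chr1:167220885-167427345 (206.5 kb) on the plus strand, with starts listed at the outer end, 1 bp further in, and at position 167329070, which is 108.2 kb downstream. Distances below run along the reading direction from the gene's first base for POU2AF1 and POU2F1 and from the listed start for POU2F2.

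The 250 bases before the listed starts are shown because they lie under or beside peaks of the factors that these genes encode, and because they differ in the octamer. They are RefSeq sequences of GRCh38.p14, written 5′ to 3′ on the gene's strand, at chr19:42132447-42132696 (minus strand), chr1:167220635-167220884 (plus strand) and chr1:167328820-167329069 (plus strand). Capitals mark a match to the octamer, here on the opposite strand. Promoters were matched for 2 of the 3 genes.
POU2F2: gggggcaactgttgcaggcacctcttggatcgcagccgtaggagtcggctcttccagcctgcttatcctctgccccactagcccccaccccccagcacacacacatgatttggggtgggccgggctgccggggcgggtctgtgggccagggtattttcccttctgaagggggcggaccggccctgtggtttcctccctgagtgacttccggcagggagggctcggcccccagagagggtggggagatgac
POU2F1 outer start: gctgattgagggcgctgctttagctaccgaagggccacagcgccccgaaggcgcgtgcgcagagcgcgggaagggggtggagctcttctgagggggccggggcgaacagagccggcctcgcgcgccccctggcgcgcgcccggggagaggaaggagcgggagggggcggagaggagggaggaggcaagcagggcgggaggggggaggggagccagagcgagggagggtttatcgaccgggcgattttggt
POU2F1 internal start: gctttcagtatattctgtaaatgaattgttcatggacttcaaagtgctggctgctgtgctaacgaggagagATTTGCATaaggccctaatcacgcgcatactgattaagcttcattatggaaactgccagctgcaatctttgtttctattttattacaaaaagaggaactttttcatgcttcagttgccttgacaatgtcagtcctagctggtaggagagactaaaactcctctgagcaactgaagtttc
The octamer ATGCAAAT was searched on both strands in windows of 250 bases before and 50 after each listed start, as was ATGCNAAT, of which the octamer is a special case. The window of the internal POU2F1 start held 1 match, at chr1:167328891-167328898, 179 bp before the start. No match to either was found in the windows of the outer POU2F1 starts or of POU2F2, which says only that these letters are not in those windows. At the outer POU2F1 start the OCA-B, OCT2 and OCT1 summits lay 53, 72 and 120 bp downstream, past the 50 bases covered. The summit of the OCA-B peak that touched the POU2F2 window lay 429 bp upstream, also outside it. The sequence under these summits was therefore not searched. Of 34961 promoter windows in the RefSeq table, 1.77% held ATGCAAAT and 2.96% held ATGCNAAT. An OCT2 peak touched 34.5% of the windows with ATGCAAAT and 17.0% of those without it. For OCA-B these shares were 30.9% and 22.9%, and for OCT1 29.6% and 26.6%. A match describes the sequence and does not show a bound site.

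After duplicate removal the libraries held 12357450 (CREBBP) to 27885791 (EP300) tags, and the lists held 23571 (OCT1) to 82569 (EP300) peaks on chromosomes 1 to 22 and X. The fold of a peak is the enrichment over input that the authors' peak caller gave, and the pileup is its number of overlapping fragments at the summit. The lists differ in depth, in antibody and in how duplicates were handled, so folds are read within a list and do not rank the factors. Intervals on pileups are 95% exact Poisson intervals and cover counting error only. Of 6 B-cell marker genes, 6 had a peak within 1 kb of an end in every list except OCT1, where 5 did. Over all 19970 protein-coding genes that share lay between 31.0% (CREBBP) and 46.2% (OCA-B). Of 5 myeloid genes 0 or 1 had such a peak, and of 4 erythroid genes none in any list. Of 5 T-cell genes 3 had one for EP300, none for OCT1 and 2 in each other list, which apart from OCT1 is about or above the share over all genes.

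All 3 windows held peaks of all 6 lists. Over all protein-coding genes, 83.6% had an OCA-B, 87.8% an OCT2 and 76.2% an OCT1 peak in the same kind of window. A peak of these lists in a window is thus the usual case for any gene. For MED1, CREBBP and EP300 this share is not given here. At POU2AF1 there were 44 OCT2, 27 OCA-B, 9 OCT1, 47 EP300, 34 MED1 and 31 CREBBP peaks in a window of 127.0 kb. POU2F2 had 23 OCT2, 28 OCA-B, 10 OCT1, 37 EP300, 23 MED1 and 22 CREBBP peaks in 211.8 kb. POU2F1 had 36 OCT2, 22 OCA-B, 9 OCT1, 34 EP300, 23 MED1 and 20 CREBBP peaks in 306.5 kb. The window of the OCA-B gene thus held the most OCT2 peaks although it was the shortest of the 3. Of these 44 peaks, 25 lay outside the gene and more than 1 kb from its ends.

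Per 100 kb of window, POU2AF1 had 34.6 OCT2 peaks against a median of 3.44 over 19970 protein-coding genes, and 14 genes had more. Its OCA-B density was 21.3 against a median of 2.90, with 297 genes above it, and its OCT1 density was 7.09 against 1.34, with 976 above. MED1 reached 26.8 (median 1.68, 51 genes above), CREBBP 24.4 (median 1.77, 87 above) and EP300 37.0 (median 3.67, 26 above). POU2F2 and POU2F1 were also above the median in every list. OCA-B had 13.2 peaks per 100 kb at POU2F2 and 7.18 at POU2F1, OCT2 had 10.9 and 11.7, and OCT1 had 4.72 and 2.94. For OCT2, 2203 genes were above POU2F2 and 1846 above POU2F1.

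**Figure D1:**
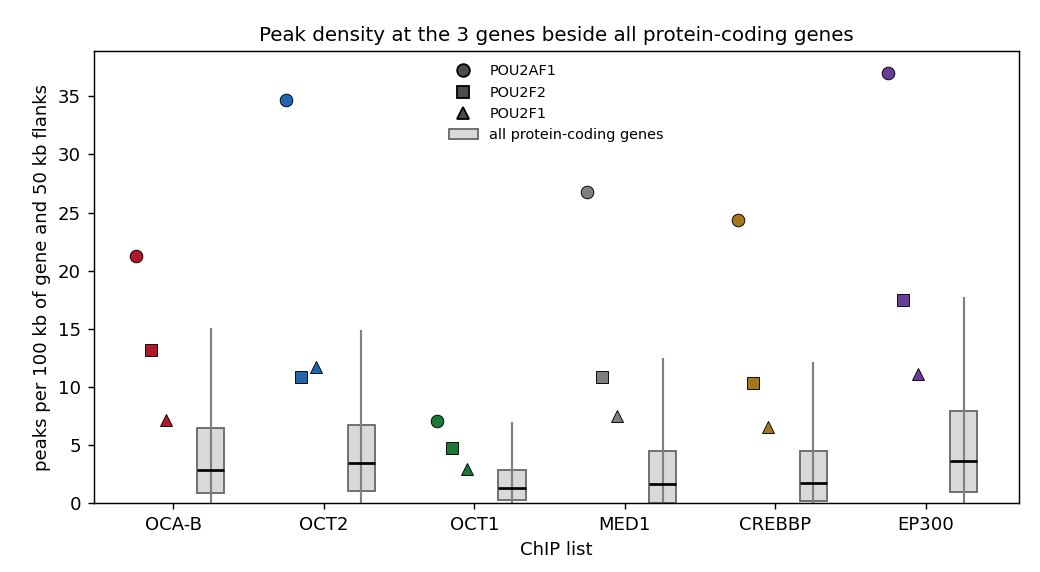
Peaks per 100 kb (vertical axis) inside each gene and 50 kb on either side, for the 6 lists; points are POU2AF1, POU2F2 and POU2F1, the box spans the quartiles with a bar at the median, and the line the 5th to 95th percentile of 19970 protein-coding genes. POU2AF1 is the highest of the 3 genes in every list, with 34.6 OCT2 peaks per 100 kb.

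OCA-B occupied POU2AF1, its own gene, at the start. The region over the start, chr11:111379020-111380761, held a summit just inside the gene and another just upstream in every list except OCT1, and MED1 had a further, weaker peak of 5.48 further upstream. OCA-B had folds of 16.4 with its summit 42 bp inside the gene and 12.7 with its summit 488 bp upstream. OCT2 had 17.6 at 47 bp inside and 14.9 at 494 bp upstream. OCT1 had the upstream peak alone, 492 bp before the start, at a fold of 4.64. At the inner summit the coactivator folds were 23.2 for EP300, 16.0 for MED1 and 13.4 for CREBBP, and at the upstream summit EP300 had 23.3, MED1 12.5 and CREBBP 27.4. The promoter of the OCA-B gene was thus shared by its own product, both OCT factors and all 3 coactivators, with OCT1 weak.

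Inside POU2AF1 the strongest CREBBP and EP300 peaks of the locus lay 11.4 kb downstream of the start, in chr11:111367155-111369272. The folds there were 38.0 for EP300, 24.1 for MED1 and 50.2 for CREBBP, beside 14.7 for OCA-B, 3.00 for OCT1 and 19.2 for OCT2. The highest summits of the 5 lists other than OCT1 fell within 24 bp of each other there. At 15.1 kb, in chr11:111363266-111365226, the folds were 5.14 for OCA-B, 4.0 for OCT1, 14.1 for OCT2, 25 for EP300, 11.1 for MED1 and 14.9 for CREBBP. At 19.8 kb, in chr11:111359162-111360164, OCT2 reached 20.4 without an OCA-B peak, beside 4.95 for OCT1, 6.29 for EP300, 4.62 for MED1 and 9.98 for CREBBP. OCT2 folds were thus alike at 11.4 and 19.8 kb, and OCA-B was called at the first of these only. Over the whole POU2AF1 window, 24 of 27 OCA-B peaks overlapped OCT2, against 78.3% of the OCA-B list. The 25 OCT2 peaks with OCA-B had a median fold of 9.46, against 4.30 for the 19 without it.

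Upstream of POU2AF1 the signals extended through the body of BTG4, a neighbour that encodes an antiproliferative protein of germ cells and whose annotated span covers most of this side. At 9.87 kb upstream, in chr11:111388509-111389616, OCT2 had its highest fold at the locus, 29.9, and OCT1 had its highest as well, 6.76. OCA-B had 15.6, MED1 13.1, CREBBP 24.5 and EP300 25.3 there, and the highest summits of all 6 lists fell within 97 bp. At 19.2 kb upstream, in chr11:111396926-111400279, the folds were 11.6 for OCA-B, 4.09 for OCT1, 21.6 for OCT2, 11.7 for EP300, 9.43 for MED1 and 9.26 for CREBBP. The highest CREBBP fold of this region, 11.2, lay apart from these, at 20.3 kb upstream. Both regions lie closer to the start of POU2AF1 than the broadest region of the locus.

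That region, chr11:111413923-111419625, is 5703 bp wide. Around its summit 35.8 kb upstream OCA-B had a fold of 18.8, OCT2 19.9, OCT1 3.19, MED1 24.8 and CREBBP 48.8. Around 38.7 kb upstream OCA-B had 19.8, its highest at the locus, OCT2 24.0, OCT1 4.21, CREBBP 46.9 and EP300 25.9, and MED1 had 21.5 at 38.1 kb. That EP300 peak was 5353 bp wide and also covered the summits at 35.8 kb. The POU2AF1 window thus held 8 OCA-B peaks with a fold of at least 10, all of which overlapped OCT2. Those at 9.87 kb upstream and beyond lie within the annotated span of BTG4, and which gene they act on was not tested. The farthest of the regions with OCT1, 43.9 kb upstream in chr11:111422575-111423493, had 10.2 for OCA-B, 2.89 for OCT1, 7.71 for OCT2, 12.1 for EP300, 9.25 for MED1 and 5.61 for CREBBP.

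The far end of POU2AF1 was weakly occupied. The 3 regions within 1 kb of it held an OCT2 peak of 3.29, an OCA-B peak of 3.81, an EP300 peak of 3.91 and CREBBP peaks of 4.31 and 5.18, and no list had a peak in all of them. In the first 4 kb after the start, chr11:111375735-111378988 had highest folds of 6.16 for OCA-B, 9.46 for OCT2, 9.04 for EP300, 11.4 for MED1 and 11.1 for CREBBP, with no OCT1 peak.

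**Figure D2:**
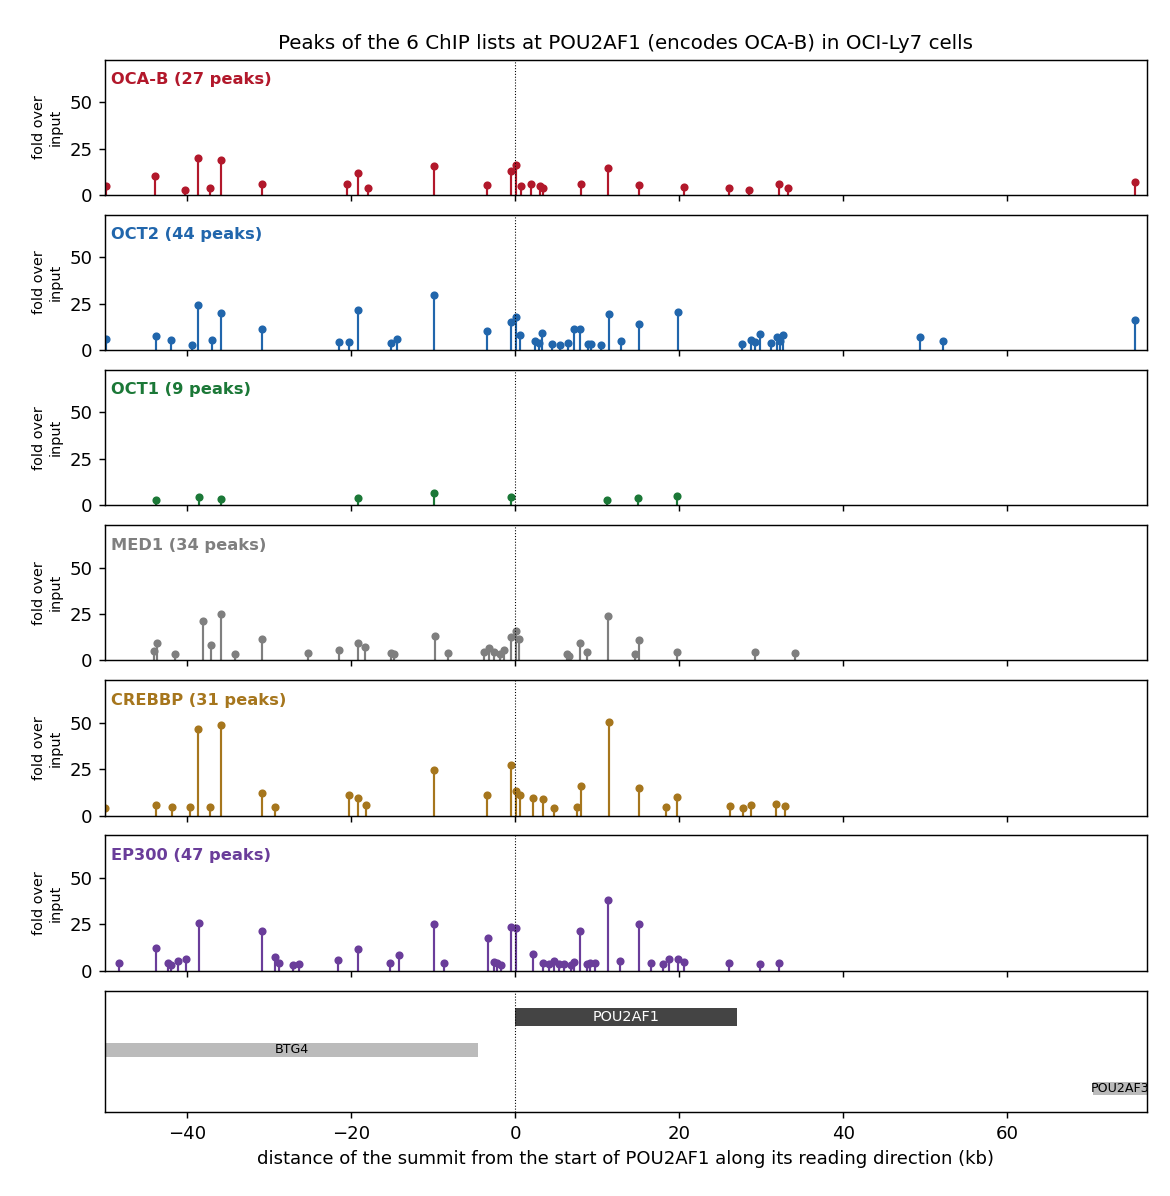
Fold over input (vertical axes) of each peak of the 6 lists at its summit's distance from the start of POU2AF1 in kb (horizontal axis, negative upstream), with protein-coding genes below. Tall OCA-B, OCT2 and coactivator peaks recur at the start, inside the gene and upstream within BTG4, while the 9 OCT1 peaks stay between 2.89 and 6.76.

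At POU2F2, the gene of OCT2, the listed start was occupied more weakly than the sequence on either side of it. In chr19:42132626-42134185, just upstream, OCA-B had folds of 6.83 at 429 bp and 8.24 at 1418 bp upstream. OCT2 had 5.06 at 341 bp and OCT1 5.55 at 829 bp, and the highest coactivator folds were 15.6 for EP300, 6.32 for MED1 and 7.23 for CREBBP. Just downstream, chr19:42131253-42132361 had 5.02 for OCA-B, 5.32 for OCT2, 6.09 for EP300, 3.85 for MED1 and 5.45 for CREBBP, with no OCT1 peak. The promoter window printed above was itself touched only by the OCA-B peak of 6.83 and an EP300 peak of 7.24. Within 1 kb of the outer ends the folds were 3.40 to 6.44, and no OCT1 peak was among them. A stronger region just past this limit, on the side of the long form's start, is described below with DEDD2.

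The stronger regions of POU2F2 flanked its listed start. At 2.63 kb downstream, in chr19:42127925-42130790, OCA-B had a fold of 13.3, OCT2 9.61 and CREBBP 17.2, with OCT1 at 7.04 at 2.71 kb. In the same region OCT2 had 11 and EP300 16.8 at 2.94 kb, and MED1 had 6.09 at 2.96 kb. At 17.9 kb downstream, in chr19:42113325-42116555, OCA-B had 13.3, OCT2 14.1, OCT1 3.69, MED1 12.2, CREBBP 12.6 and EP300 19.2. At 3.58 kb upstream, in chr19:42135767-42136311, CREBBP had 18.2 and EP300 19.4, beside 9.54 for OCA-B, 7.71 for OCT2 and 7.29 for MED1, with no OCT1 peak. OCT2 thus occupied its own gene together with OCA-B on both sides of the listed start.

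The highest OCT2 fold at its own gene had no OCA-B beside it. It was 17.8, in chr19:42182097-42182511, 49.8 kb upstream of the listed start and inside the long form of the gene, where MED1 had 3.87 and EP300 4.81 and neither OCT1 nor CREBBP had a peak. At 22.8 kb upstream, in chr19:42154586-42155595, all 6 factors met again, with folds of 6.53 for OCA-B, 4.70 for OCT1, 8.10 for OCT2, 15.0 for EP300, 4.55 for MED1 and 7.39 for CREBBP.

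Several of the strongest peaks of the POU2F2 window lay at other genes. Beside the end of DEDD2, which encodes a death effector domain protein, chr19:42198956-42199416 had 15.2 for OCA-B, 3.86 for OCT1, 8.56 for OCT2, 19.7 for EP300 and 9.29 for CREBBP. Inside DEDD2, chr19:42216957-42218355 had 10.9 for OCA-B, 9.66 for OCT1, 10.4 for OCT2, 13.8 for EP300, 9.68 for MED1 and 9.74 for CREBBP. At the end of GSK3A, the gene of a glycogen synthase kinase, chr19:42242609-42243694 held the highest OCA-B fold of the window, 15.9, with 9.21 for OCT1, 14.6 for OCT2, 17.4 for EP300, 10.0 for MED1 and 18.4 for CREBBP. The highest summits of the 6 lists fell within 47 bp there. A neighbouring region, chr19:42244259-42245064, had 6.98 for OCA-B, 3.68 for OCT1, 5.20 for OCT2, 4.38 for EP300, 5.14 for MED1 and 8.87 for CREBBP. Which gene any of these regions acts on was not tested.

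The remaining OCT1 peaks of this window were 3.79 at chr19:42220109-42220431, at the ends of DEDD2 and ZNF526 and the only OCT1 region of the 3 loci without OCT2, and 10.5 at chr19:42075401-42076226. The region with 10.5 lies inside ZNF574, a zinc-finger gene downstream of POU2F2, and had 7.83 for OCA-B, 3.85 for OCT2, 4.35 for EP300 and 4.27 for MED1. It held the highest OCT1 fold of the POU2F2 window.

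**Figure D3:**
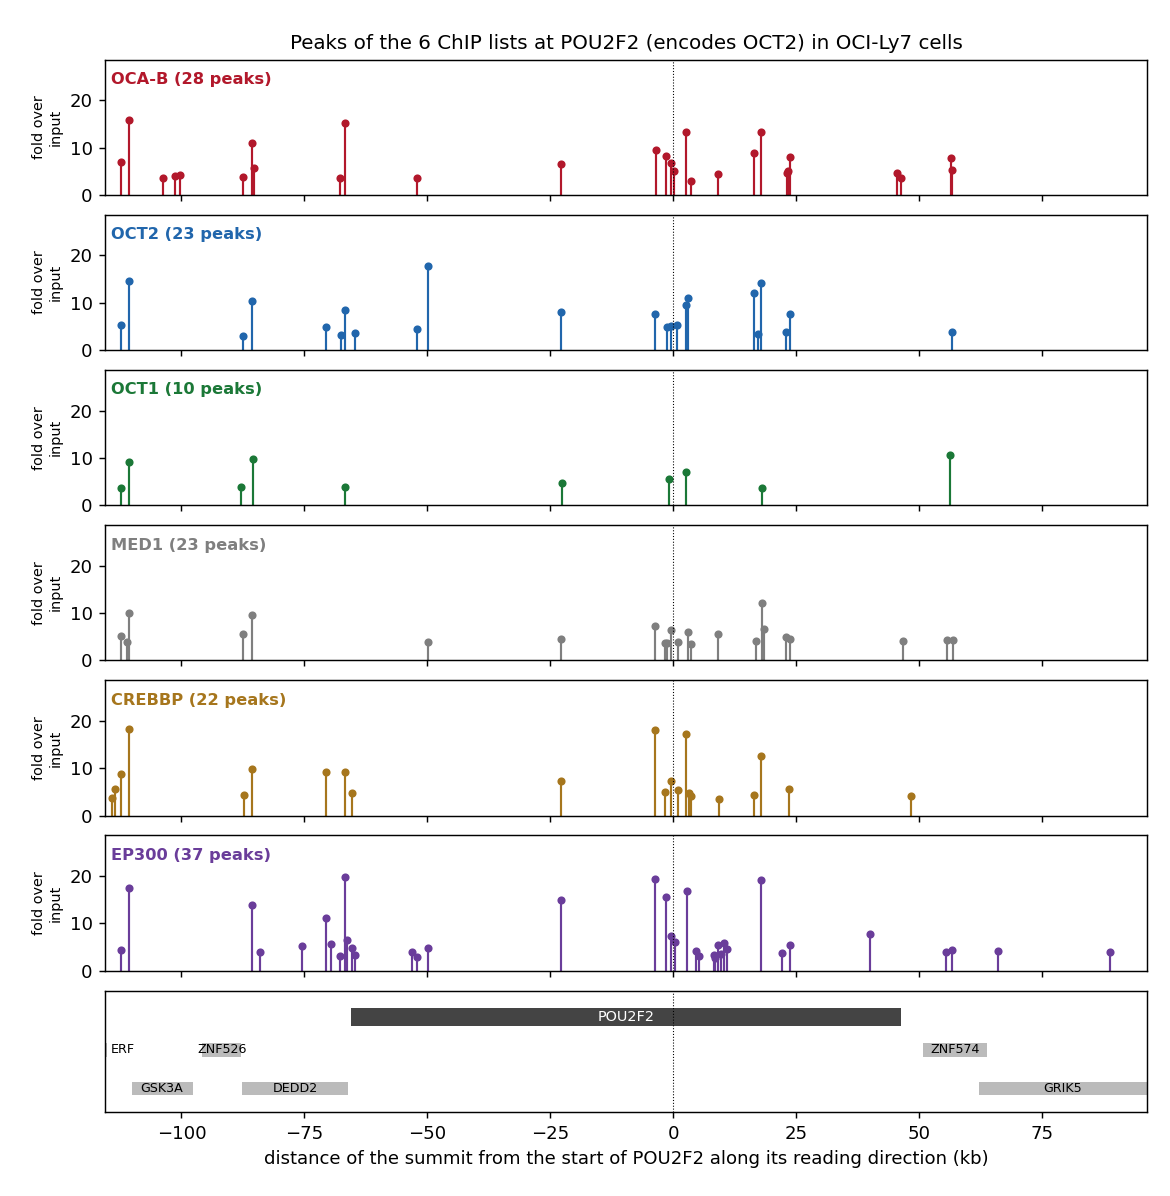
Fold over input (vertical axes) of each peak of the 6 lists at its summit's distance from the listed start of POU2F2 in kb (horizontal axis, negative upstream), with protein-coding genes below. Peaks cluster on both sides of the listed start and at DEDD2 and GSK3A, and the tallest OCT2 peak, 17.8 at 49.8 kb upstream, has no OCA-B peak.

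OCT1 occupied POU2F1, its own gene, at both of its start regions, and these were among the strongest peaks of the OCT1 list. Over the outer start, in chr1:167218714-167221429, OCT1 had a fold of 51.0 and a pileup of 325 (95% interval 291 to 362), which ranked 84 of 23571. Its summit was 120 bp downstream of the first base. OCT2 had 48.9 there at 72 bp (pileup 250, 220 to 283, rank 208 of 73829) and OCA-B had 22.9 at 53 bp. The coactivators at the same spot had 6.45 for EP300, 5.06 for MED1 and 12.4 for CREBBP. In those lists 47.5% of MED1, 76.1% of CREBBP and 59.9% of EP300 peaks had a fold at or below these, so the outer start stood high for the OCT factors and mid-list for MED1 and EP300. A second OCT2 peak 868 bp upstream had 18.9, with 6.27 for OCA-B, 7.42 for EP300, 9.21 for MED1 and 6.66 for CREBBP near it.

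The same contrast recurred 1.49 kb inside the gene, in chr1:167221678-167223194. OCT1 had a fold of 35.1 (pileup 308, 275 to 344, rank 207), OCT2 31.3 and OCA-B 22.3, against 6.25 for EP300, 6.08 for MED1 and 5.87 for CREBBP. Here the coactivator folds were near their list medians, which lay between 5.23 for MED1 and 6.60 for CREBBP, while the OCT factors were far up their lists.

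At the internal start of POU2F1 all 6 factors were high. In chr1:167327534-167331990, OCT1 had 42.6 (pileup 323, 289 to 360, rank 124), OCT2 45.5 (rank 351) and OCA-B 34.7 (pileup 200, 173 to 230, rank 165 of 55361), the highest OCA-B fold of the 3 loci. MED1 had 21.6, CREBBP 42.4 and EP300 32.4. The octamer of the internal promoter printed above lies under these peaks: along the strand, the OCA-B summit was 11 bp and the OCT2 summit 23 bp after the motif's middle (position 167328894), and the OCT1 summit was 34 bp before that position. The CREBBP and EP300 summits were 71 bp and the MED1 summit 129 bp after it. About 110 kb from the outer start, in the same region, OCT1 had a further 19.0, OCT2 41.5, OCA-B 11.6, CREBBP 24.6 and EP300 25.4, with no separate MED1 peak. An OCT1 peak of 3.91 at 107 kb was the one OCT1 peak of this gene without OCA-B.

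Upstream of POU2F1, at 11.7 kb, chr1:167207881-167209886 held the highest CREBBP and EP300 folds of the 3 loci, 68.2 (rank 243) and 47.2 (rank 474). OCT1 had 13.0 there, OCT2 32.4, OCA-B 22.3 and MED1 21.1, and the highest summits of the 6 lists fell within 53 bp. No peak of any list lay between 12.4 kb upstream of the gene and the edge of the window.

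Further inside POU2F1, at 137 kb, chr1:167357369-167362024 had 14.6 for OCA-B, 6.83 for OCT1, 20.9 for OCT2, 28.5 for EP300, 15.8 for MED1 and 33.1 for CREBBP. At 150 kb, chr1:167371130-167371549 held OCT1 at 13.3, OCT2 at 11.5 and OCA-B at 5.72 and none of the coactivators. At chr1:167401128-167401701 OCA-B had 7.15, OCT2 6.07, MED1 3.24, CREBBP 4.29 and EP300 9.03, with no OCT1. Beyond the gene's far end, at the boundary of CD247, which encodes the T-cell receptor zeta chain, chr1:167430441-167430984 had 4.09 for OCA-B, 2.50 for OCT1, 9.21 for OCT2 and 6.19 for EP300.

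**Figure D4:**
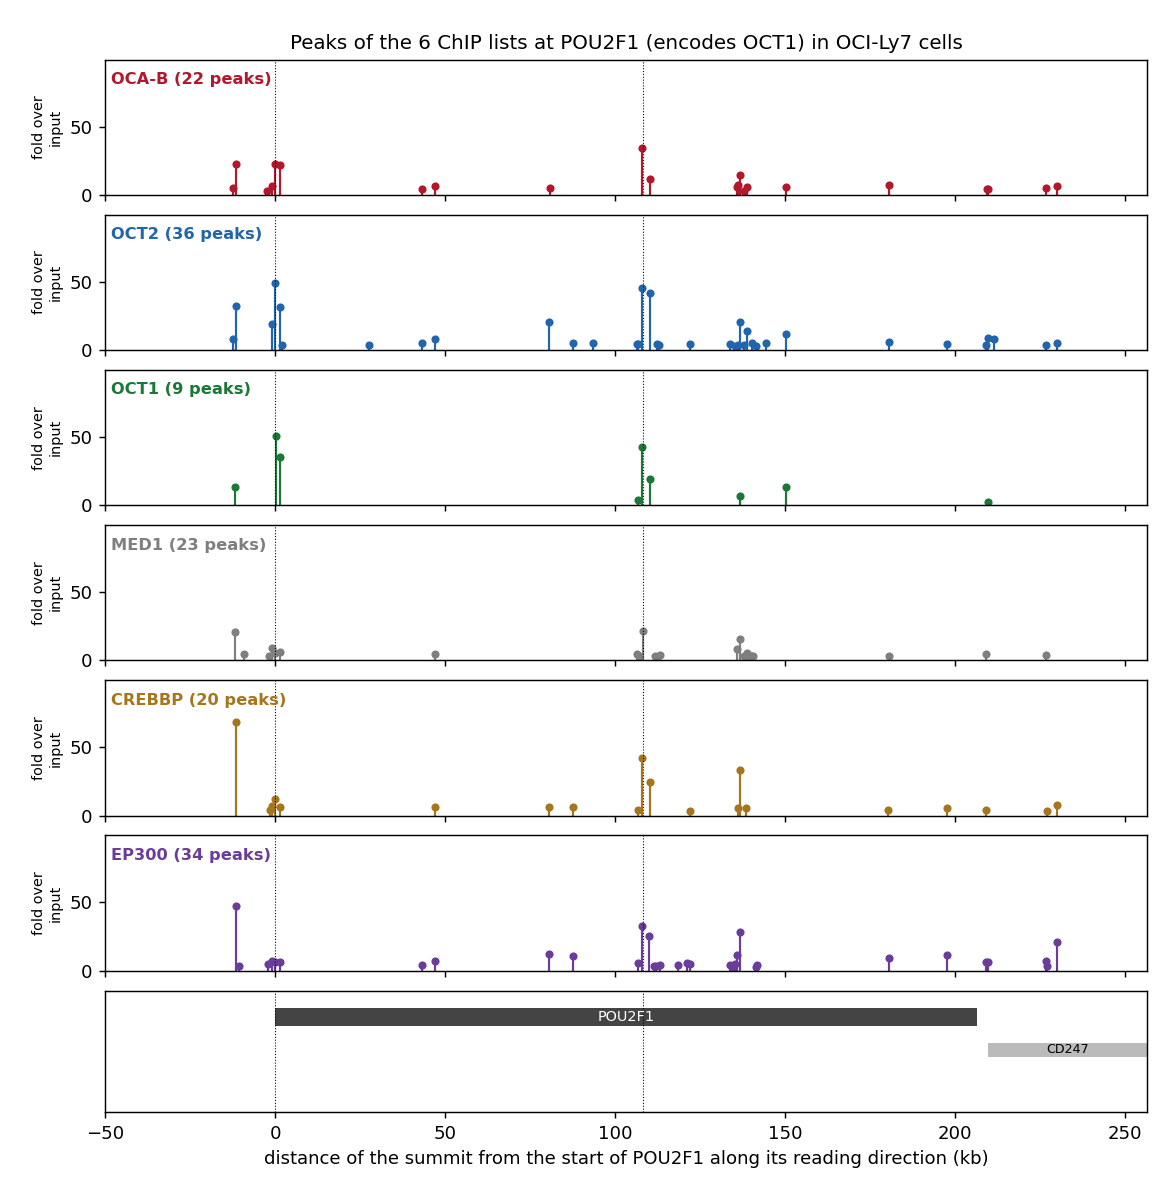
Fold over input (vertical axes) of each peak of the 6 lists at its summit's distance from the outer start of POU2F1 in kb (horizontal axis, negative upstream), with protein-coding genes below. The tall OCT1 peaks, 51.0, 35.1 and 42.6, stand at the outer and internal starts, and the coactivators are tall at the internal start and 11.7 kb upstream.

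OCT1 folds were mostly higher at its own gene than at the genes of OCA-B and OCT2, although the ranges overlapped. Of its peaks, 6 of 9 at POU2F1, 0 of 9 at POU2AF1 and 1 of 10 at POU2F2 had a fold of at least 10, against 15.2% of the whole list. The median OCT1 fold was 13.3 at POU2F1, 4.09 at POU2AF1 and 5.13 at POU2F2, against 5.65 in the whole list. OCT2 reached a fold of 10 at 10 of 36 peaks at POU2F1, 14 of 44 at POU2AF1 and 6 of 23 at POU2F2 (23.4% of its list). OCA-B did so at 6 of 22 peaks at POU2F1, 8 of 27 at POU2AF1 and 5 of 28 at POU2F2 (18.2% of its list). With 9 or 10 OCT1 peaks a gene and 1 library, these are descriptions.

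**Figure D5:**
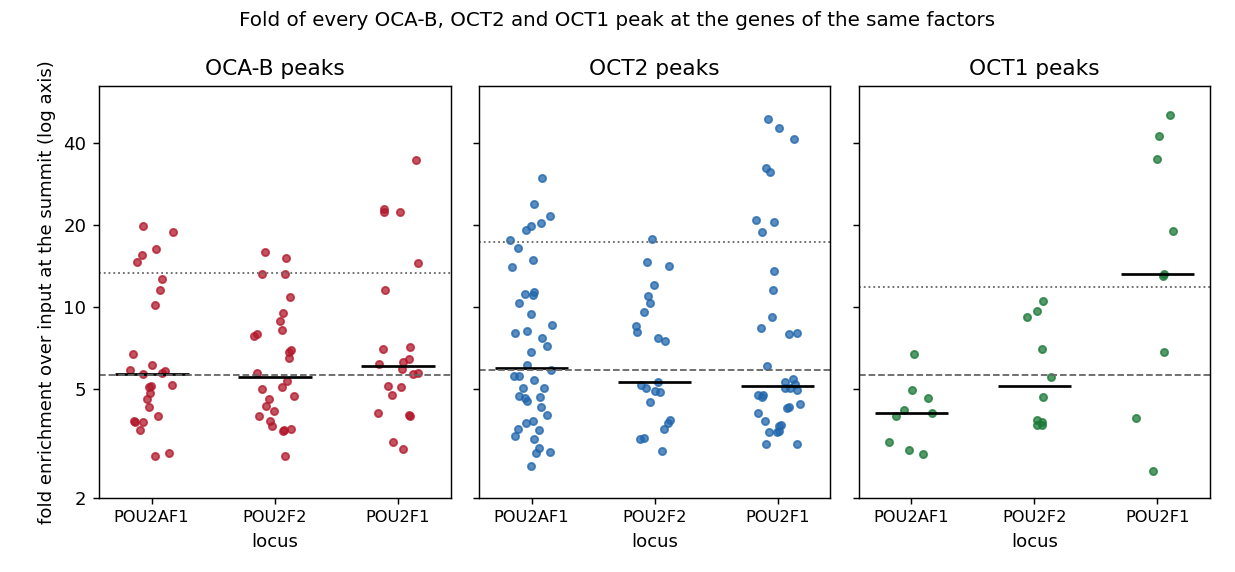
Fold over input (vertical axis, log scale) of every OCA-B, OCT2 and OCT1 peak, with a panel per list, the 3 genes on the horizontal axis, 1 point per peak and a bar at the median. Dashed and dotted lines mark the median and the 90th percentile of the whole list. OCT1 peaks at POU2F1 have a median of 13.3, above those at POU2AF1 (4.09) and POU2F2 (5.13), and the OCA-B and OCT2 folds overlap widely between the genes.

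At the 3 loci OCT1 was seldom seen without its paralogue. Of 28 OCT1 peaks, 27 overlapped an OCT2 peak (67.9% of the whole OCT1 list did) and 25 an OCA-B peak (72.7%). In the other direction 32 of 103 OCT2 peaks overlapped OCT1 (21.4% of the OCT2 list) and 64 overlapped OCA-B (56.4%). Of 77 OCA-B peaks, 63 overlapped OCT2 (78.3% of the OCA-B list) and 30 overlapped OCT1 (31.5%). As shares of all OCA-B peaks at these loci this is 81.8% and 39.0%. With the coactivators, 52 of the 77 OCA-B peaks overlapped MED1 (61.7% of the list), 55 overlapped CREBBP (60.1%) and 64 overlapped EP300 (81.7%), so OCA-B peaks here met CREBBP somewhat more often than the list did and EP300 about as often. OCA-B overlapped OCT2 at 24 of 27 peaks at POU2AF1, 21 of 22 at POU2F1 and 18 of 28 at POU2F2. The OCT1 and OCT2 proteins are similar, and whether either antibody also recovers the other was not tested.

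OCA-B peaks without OCT2 were weak. The 14 of them had a median fold of 4.08 and a highest of 7.83, against a median of 6.20 and a highest of 34.7 for the 63 with OCT2, and none reached 10. Of these 14, 10 lay at POU2F2, 3 at POU2AF1 and 1 at POU2F1. OCT2 peaks without OCA-B had a median fold of 4.62, against 8.29 for those with it, and 3 of 39 reached 10. These 3 were the ones described at 19.8 kb inside POU2AF1 and 49.8 kb upstream of the listed start of POU2F2, and a peak of 11.4 at 7.16 kb inside POU2AF1. Here "without" means that no OCA-B peak overlapped. An OCA-B peak of 5.74 lay at 7.97 kb, in the same merged region as the peak of 11.4. Another of 4.29 lay at 20.6 kb, near the peak at 19.8 kb. The same split of folds was not made over the whole lists, so whether it is particular to these loci was not tested.

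Merged regions with all 6 factors numbered 7 at POU2AF1, 7 at POU2F2 and 5 at POU2F1, or 13.8% of the 138, against 9.49% of all merged regions. Regions in a single list were 59, or 42.8%, against 47.0%. OCA-B, OCT2 and OCT1 shared 7 regions at POU2AF1, 9 at POU2F2 and 7 at POU2F1. OCA-B and OCT2 were both listed without OCT1 in 9, 6 and 8 regions of these genes, and OCT2 stood without OCA-B and OCT1 in 15, 3 and 12. Peaks that share a merged region need not overlap. In chr19:42131253-42132361 at POU2F2, counted here, the OCA-B and OCT2 peaks did not. EP300 alone marked 11, 16 and 7 regions. For these combinations of factors no share over all merged regions was computed, so the counts only describe the 3 loci.

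A peak lay within 1 kb of an end of POU2AF1 and of POU2F1 in all 6 lists, and of POU2F2 in every list but OCT1. Over 19970 protein-coding genes the share with such a peak was 46.2% for OCA-B, 41.9% for OCT1, 40.9% for OCT2, 45.5% for EP300, 33.7% for MED1 and 31.0% for CREBBP. At POU2F2 these peaks had folds of at most 6.44, while at POU2F1 OCT1 reached 51.0. Just past the 1 kb limit at the outer end of POU2F2, chr19:42198956-42199416 had 15.2 for OCA-B, 19.7 for EP300 and 3.86 for OCT1.

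Of 13 further POU genes, OCA-B had a peak in the window of 6, OCT2 of 12 and OCT1 of 5, where 83.6%, 87.8% and 76.2% of all protein-coding genes had one. OCA-B had a peak within 1 kb of an end of 3 of the 13, OCT2 of 5 and OCT1 of 3. POU6F1 alone among them had a peak within 1 kb of an end in all 6 lists. The genes of the OCA-B relatives, POU2AF2 and POU2AF3, had 5 and 9 OCA-B peaks, 10 and 15 OCT2 peaks and 1 OCT1 peak each in their windows, and none within 1 kb of an end in any list. POU2AF3 lies beside POU2AF1 and their windows overlap. Per 100 kb, POU2AF3 had 13.6 OCT2 and 8.17 OCA-B peaks and POU2AF2 had 7.11 and 3.55, against medians over all genes of 3.44 and 2.90, so both were under POU2AF1 and POU2AF3 was near POU2F1. Of the genes for the other proteins assayed, EP300 had 12 OCA-B peaks in its window, MED1 4 and CREBBP 1. All 6 lists had a peak at an end of EP300 and of MED1, and none at an end of CREBBP.

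The genes whose peak densities over the 6 lists were nearest to those of POU2AF1, by distance between log2 densities over the 6 values, were SWAP70 (0.27), ZNF860 (0.28) and LOC105377015 (0.33). SWAP70, which encodes a signalling protein of activated B cells, had 22.8 OCA-B, 34.4 OCT2 and 7.94 OCT1 peaks per 100 kb, beside 21.3, 34.6 and 7.09 at POU2AF1.

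The 50 kb limit cut through occupied sequence at POU2AF1 and not at POU2F1. On the upstream side of POU2AF1 the last peak inside was a CREBBP peak of 4.11 at 49976 bp, and the first outside was a MED1 peak of 4.06 at 50035 bp. At POU2F1 the last peak inside on the upstream side was an OCT2 peak of 8.07 at 12434 bp and the first outside an OCT2 peak of 5.18 at 84392 bp.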

How the data were processed

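Peak lists of 6 factors were used, with 1 library each. Chromatin had been immunoprecipitated from sonicated nuclei, per the labels' protocols. The submitters' processing notes name CASAVA 1.8.2, Bowtie2 2.3.2.2, SAMtools 1.3.1, MACS2 2.1.1.20160309 and hg38. Per the file headers, each list was called alone against the same input at a q threshold of 0.05. The input enters only through that calling. The deposited lists give, as the authors' peak caller wrote them, each peak's fold ratio over input, −log10 q-value, −log10 p-value (not used here) and summit pileup signal. Per the file headers, MED1 and CREBBP had a redundant rate of 0, against 0.08 to 0.2 in the remaining libraries.

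Peaks on chromosomes 1 to 22 and X were merged where they overlapped by at least 1 bp. Gene ends, for 19970 protein-coding genes, came from RefSeq (GRCh38.p14), and listed starts, strands and promoter sequences from the RefSeq promoter table. The minus strand of POU2AF1 is background knowledge. No genome sequence was used, so motifs were searched in promoter windows only. For the most alike genes a pseudocount of 1 was added to the peaks per 100 kb before taking log2, and distances are Euclidean. Python 3.11.15, pandas 2.3.3, NumPy 2.4.6 and SciPy 1.17.1 were used. The overlap counts were tested on simulated data.

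Sites named were regions within 1 kb of a member gene's end, the 6 highest OCA-B and 3 highest OCT2 folds of each locus, every region with OCT1, and the highest fold of each coactivator. The peak of 11.4 at POU2AF1, the region just downstream of the listed start of POU2F2, and POU6F1 were singled out after their values were seen. The genes, lists and rules were chosen with earlier results of these data known. No test was made, since each factor had 1 library. Alternatives were a 10 kb flank, a −log10 q of at least 5, lists shortened to 23571 peaks, and merging by summits within 250 bp.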

Additional observations from a re-analysis of the deposited data

How the results depend on the processing

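No value has a replicate check, and no paired analysis was possible because each factor had 1 library and no result comes from a test. Of 48 recomputed counts, 33 stayed within 1.5 times the value reported and 15 did not. With a 10 kb flank, POU2AF1 had 34 regions in place of 54, 14 OCA-B peaks with OCT2 in place of 24, 5 OCT1 peaks in place of 9 and 4 regions in all 6 lists in place of 7, and POU2F2 had 5 OCT1 peaks in place of 10 and 4 regions in all 6 lists in place of 7. A smaller window holds fewer peaks by construction. With a −log10 q of at least 5, POU2F2 had 29 regions in place of 47. With every list shortened to its strongest 23571 peaks, the regions were 15 at POU2AF1, 16 at POU2F2 and 16 at POU2F1, OCA-B peaks with OCT2 were 12, 9 and 9, and POU2F2 had 4 regions in all 6 lists. Joining peaks by summits within 250 bp gave 82 regions at POU2AF1, since wide merged regions were split. The OCT1 list is the shortest, so an OCT1 peak that is not listed was not detectable at the authors' threshold and is not shown to be absent.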
